A study of Mus musculus with 4 samples.

Results

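The genes examined were 10 transcription factors that build and maintain the heart, Gata4, Gata6, Nkx2-5, Tbx5, Tbx20, Hand2, Mef2a, Mef2c, Mef2d and Tead1. They were taken by symbol from the gene list of the deposited matrices, which holds 32285 genes, and all 10 were found and counted in every library. The tissue was left ventricle of male C57BL/6J wild-type mice, sequenced as single-cell 3′ libraries on the 10x Chromium system. There were 4 libraries and 1 per group. Young sham and young I/R came from mice of 3 to 5 months, and aged sham and aged I/R from mice of 24 to 26 months. Both I/R groups had surgery on the left anterior descending artery which stopped flow for 45 min, and the tissue was taken 24 h after flow returned (I/R, ischemia and reperfusion). The labels call the sham mice healthy and unaltered while the study describes sham operations, and the labels give nuclear RNA as the molecule while the study describes single-cell suspensions. How many mice went into a library was not stated. For each library the UMIs (unique molecular identifiers, each standing for 1 captured RNA molecule) of a gene were summed over all barcodes and divided by the library total (CPM, counts per 1e6 UMIs). With 1 library per group no test between groups was possible, and every interval below is an exact 95% interval that covers counting error only, not the variation between mice.

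These factors form a connected regulatory network. GATA, NK homeobox, T-box, HAND and MEF2 proteins bind one another and often sit on the same enhancers, where they switch on the genes of the contractile apparatus, of calcium handling and of the natriuretic peptides. Most of them are needed for the heart to form in the embryo, stay on in adult heart muscle, and take part in the return of fetal genes under stress, while TEAD1 binds DNA for the Hippo pathway cofactors YAP and TAZ. MEF2 proteins are held in check by class IIa histone deacetylases and released by calcium signalling.

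The sequence ahead of the transcription start was available for 6 of the 10 factors, Hand2, Mef2a, Mef2c, Mef2d, Nkx2-5 and Tbx20, with 8 starts among them (RefSeq, GRCm38.p6). The 4 sequences shown belong to the factors on which the comparisons turned. In CPM, Mef2c and Mef2a had the lowest ratios of young I/R to young sham, and Hand2 had the highest ratio of aged I/R to aged sham. Nkx2-5 was the only factor above 1 in young I/R over young sham in CPM, though not under another scaling described below. Each is the 250 bases before the start, written 5′ to 3′ on the strand of the gene. Capitals mark matches, on either strand, to 1 of 5 motifs. The GATA motif was AGATAA with A or T as its first letter and A or G as its last. The MEF2 motif was CTA and TAG with any 4 bases between. The TEAD motif was GGAATG. The T-box motif was AGGTGTG. The NKX2-5 motif was TNAAGTG.
Hand2: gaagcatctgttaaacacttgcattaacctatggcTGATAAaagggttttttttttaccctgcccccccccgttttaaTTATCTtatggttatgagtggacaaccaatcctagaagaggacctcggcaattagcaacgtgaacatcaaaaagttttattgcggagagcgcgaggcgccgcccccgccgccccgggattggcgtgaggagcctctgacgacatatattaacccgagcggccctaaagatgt
Mef2c: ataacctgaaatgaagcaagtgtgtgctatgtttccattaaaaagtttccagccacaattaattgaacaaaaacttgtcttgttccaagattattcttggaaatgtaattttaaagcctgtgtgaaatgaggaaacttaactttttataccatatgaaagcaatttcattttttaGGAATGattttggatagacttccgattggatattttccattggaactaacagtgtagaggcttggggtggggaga
Mef2a: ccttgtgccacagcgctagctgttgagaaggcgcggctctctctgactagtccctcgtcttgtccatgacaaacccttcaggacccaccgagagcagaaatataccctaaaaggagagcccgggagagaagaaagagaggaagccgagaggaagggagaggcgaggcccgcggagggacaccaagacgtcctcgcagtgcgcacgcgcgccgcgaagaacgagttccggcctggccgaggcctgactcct
Nkx2-5: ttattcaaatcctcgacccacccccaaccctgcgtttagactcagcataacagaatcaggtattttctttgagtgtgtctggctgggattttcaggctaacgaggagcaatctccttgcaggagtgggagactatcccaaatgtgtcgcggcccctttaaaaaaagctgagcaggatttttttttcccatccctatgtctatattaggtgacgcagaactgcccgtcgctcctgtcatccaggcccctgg
The Hand2 sequence is chr8:57320733-57320982 on the plus strand and held 2 GATA matches, 215 to 210 and 172 to 167 bases before the start. It also lies within Hand2os1, a non-coding gene annotated on the other strand. The Mef2c sequence, chr13:83503784-83504033 on the plus strand, lies before the first of 3 starts and held 1 TEAD match, 75 to 70 bases before it. No match was found in the Mef2a sequence, chr7:67372859-67373108 on the minus strand, or in the Nkx2-5 sequence, chr17:26841566-26841815 on the minus strand. The Nkx2-5 sequence lies before an internal start, within the annotated gene, whose 5′ end is at 26845009. Mef2d, Tbx20 and the third Mef2c start had no match either, and the second Mef2c start had 1 T-box match. Bases after the third Mef2c start lay in 4 annotated transcripts, those after the first in 1 and those after the second in 0. Such matches are common. Among 32851 promoter windows of the same length, 26.5% held a GATA match, 12.6% a TEAD match, 10.1% an NKX2-5 match, 5.10% a T-box match and 3.20% a MEF2 match. They are descriptions of the letters and not binding sites.

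Depth and RNA make-up differed between the libraries. The totals ran from 25836175 UMIs in young sham to 66767829 in aged I/R, with 39673199 in young I/R and 41356670 in aged sham, over 91124 to 102883 barcodes. Barcodes with at least 200 detected genes made up 28.4% of young sham, 55.2% of young I/R, 67.9% of aged sham and 98.8% of aged I/R. Between 7.44% and 7.92% of the barcodes of a library also occurred in another library. Mitochondrial RNA took 9.98% to 15.6% of the UMIs, Malat1, a nuclear long non-coding RNA, took 2.22% (young I/R) to 7.34% (young sham), and Gm42418, a gene that overlaps ribosomal RNA, took 11.5% (young sham) to 19.4% (young I/R). The defining cardiomyocyte markers (Ttn, Myh6, Tnnt2 and 16 others) summed to 89772 to 110888 CPM and none was at 0, so the label of heart muscle tissue held in all 4 libraries. The median gene was not at a ratio of 1. It lay at a log2 ratio of −0.51 for young I/R over young sham, 0.085 for aged I/R over aged sham, −0.14 for aged over young sham and 0.47 for aged over young I/R. With Gm42418, Malat1 and the mitochondrial genes left out of the totals these medians were −0.37, −0.0051, −0.065 and 0.31. Ratios are therefore also given relative to the median of all genes and after gene-wise scaling, in which the libraries are scaled by the median of the gene-wise ratios over the 19280 genes counted in all of them. In sums over barcodes, fewer cells of a type and less RNA per cell cannot be told apart.

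**Figure D1:**
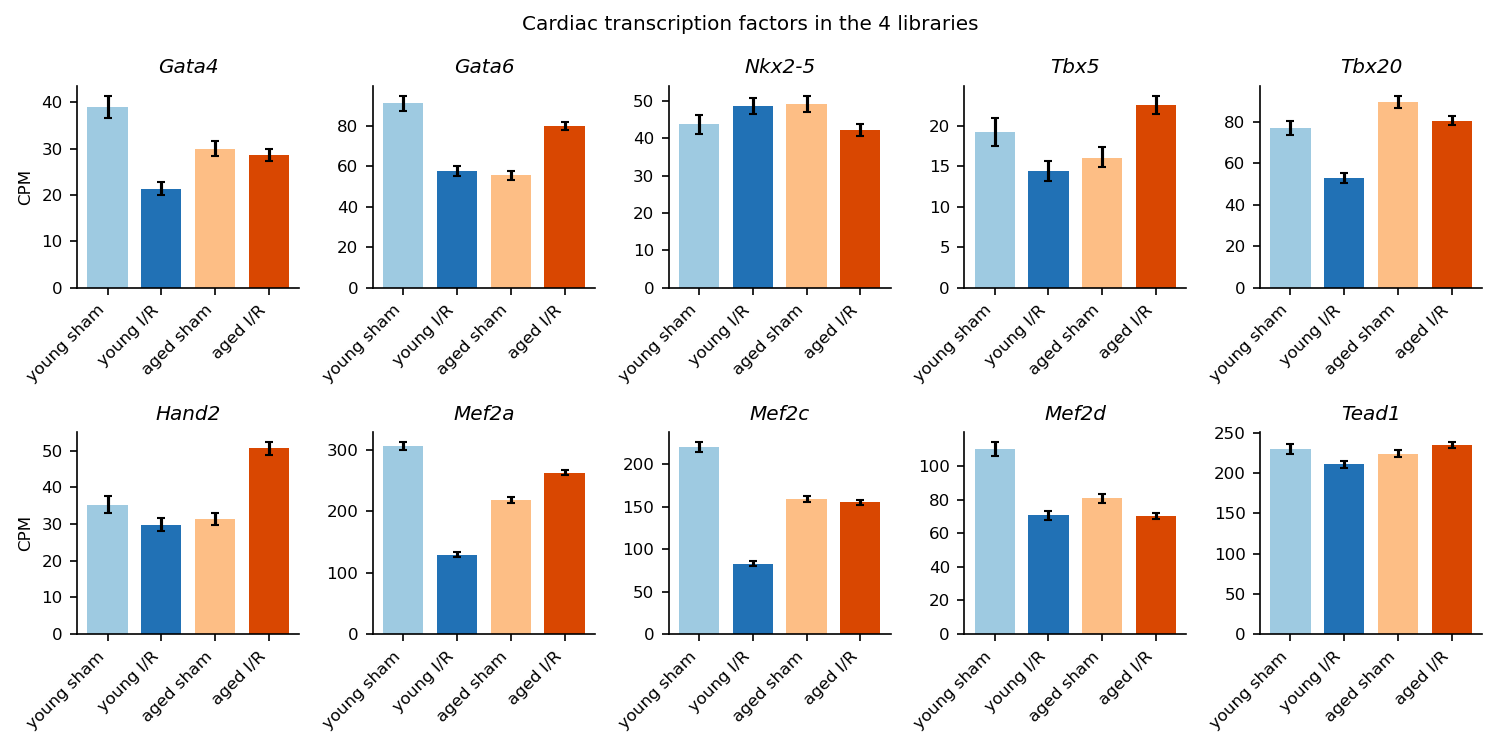
Level of each factor in the 4 libraries, in CPM (UMIs of the gene per 1e6 UMIs of the library), as 1 bar per library with its exact 95% Poisson interval. Young I/R is the lowest bar for 7 of the 10 factors. The median log2 ratio of young I/R to young sham over all genes was −0.51 on this scale. With gene-wise scaling young I/R is lowest only for Tbx20, Mef2a and Mef2c. Nkx2-5 and Tead1 vary least in CPM, which for Nkx2-5 does not hold with gene-wise scaling (log2 range 0.66).

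Gata4 and Gata6 are zinc finger factors that bind GATA sites, act with NKX2-5 and TBX5, and can in part stand in for each other. Gata4 (chromosome 14, 63198922 to 63271692, minus strand) was at 39.0 CPM (36.6 to 41.5) in young sham, 21.4 CPM (19.98 to 22.9) in young I/R, 30.0 CPM (28.3 to 31.7) in aged sham and 28.6 CPM (27.3 to 29.9) in aged I/R. Young sham was highest and young I/R lowest, 1.82-fold apart, and the aged libraries lay between them within counting error of each other. Gata6 (chromosome 18, 11052064 to 11085635, plus strand) was at 91.0 CPM (87.4 to 94.8) in young sham, 57.6 CPM (55.3 to 60.0) in young I/R, 55.5 CPM (53.2 to 57.8) in aged sham and 79.8 CPM (77.6 to 81.9) in aged I/R. It was thus high in young sham and aged I/R and low in the other pair, whose members were within counting error of each other.

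Nkx2-5, the NK homeobox factor of early heart progenitors that also guards the conduction system, had the narrowest range beside Tead1 in CPM, but not with gene-wise scaling, where only Mef2a and Mef2c had a wider one. Nkx2-5 (chromosome 17, 26838664 to 26845009, minus strand) was at 43.8 CPM (41.3 to 46.4) in young sham, 48.7 CPM (46.5 to 50.9) in young I/R, 49.3 CPM (47.2 to 51.5) in aged sham and 42.2 CPM (40.7 to 43.8) in aged I/R. The levels formed 2 pairs, aged sham with young I/R and young sham with aged I/R, each within counting error, and the highest was 1.17-fold over the lowest. In CPM it was the only factor whose level in young I/R exceeded that in young sham, and with gene-wise scaling Tbx5, Hand2 and Tead1 did so too.

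The T-box factors Tbx5, which drives atrial and left ventricular development and conduction genes, and Tbx20, which is needed in adult heart muscle for calcium handling genes, had different orders. Tbx5 (chromosome 5, 119832668 to 119885219, plus strand), the factor with the fewest UMIs here, was at 19.2 CPM (17.6 to 21.0) in young sham, 14.4 CPM (13.2 to 15.6) in young I/R, 16.1 CPM (14.9 to 17.4) in aged sham and 22.6 CPM (21.5 to 23.8) in aged I/R. Aged I/R was highest, and aged sham and young I/R at the low end were within counting error. Tbx20 (chromosome 9, 24718138 to 24774303, minus strand) was at 76.9 CPM (73.6 to 80.4) in young sham, 52.8 CPM (50.6 to 55.1) in young I/R, 89.7 CPM (86.9 to 92.7) in aged sham and 80.6 CPM (78.5 to 82.8) in aged I/R. Young I/R stood apart from the other libraries of Tbx20, among which aged I/R and young sham were within counting error.

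Hand2 is a basic helix-loop-helix factor of the right ventricle in the embryo and of stress growth in the adult heart. Hand2 (chromosome 8, 57320983 to 57324633, plus strand) was at 35.2 CPM (33.0 to 37.6) in young sham, 29.8 CPM (28.1 to 31.5) in young I/R, 31.4 CPM (29.7 to 33.1) in aged sham and 50.6 CPM (48.9 to 52.3) in aged I/R. Aged I/R was 1.698-fold over young I/R and apart from all other libraries, while aged sham and young I/R were within counting error of each other.

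The MEF2 factors, MADS-box proteins that activate muscle structural and metabolic genes, had their highest levels in young sham. Mef2a (chromosome 7, 67231163 to 67372858, minus strand) was at 305 CPM (299 to 312) in young sham, 129 CPM (126 to 133) in young I/R, 218 CPM (213 to 222) in aged sham and 262 CPM (258 to 266) in aged I/R. All 4 levels of Mef2a were apart, and the highest was 2.36-fold over the lowest. Mef2c (chromosome 13, 83504034 to 83667080, plus strand), the member first needed in the embryonic heart, was at 220.2 CPM (215 to 226) in young sham, 82.9 CPM (80.0 to 85.7) in young I/R, 159 CPM (155 to 163) in aged sham and 155 CPM (152 to 158) in aged I/R. Its range of 2.66-fold was the widest of the 10 factors, with the aged libraries within counting error of each other. Mef2d (chromosome 3, 88142372 to 88172086, plus strand), known for its part in adult stress remodelling, was at 110.0 CPM (106 to 114) in young sham, 70.6 CPM (68.0 to 73.3) in young I/R, 80.7 CPM (78.0 to 83.5) in aged sham and 70.2 CPM (68.2 to 72.2) in aged I/R. Here the lowest pair was aged I/R with young I/R, within counting error.

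Tead1, the main TEAD factor of heart muscle, had the narrowest range of the factors by CPM. With gene-wise scaling its log2 range of 0.386 was nearly level with that of Gata4 (0.388), Tbx5 and Tbx20 (both 0.40). Tead1 (chromosome 7, 112679318 to 112906807, plus strand) was at 229.95 CPM (224 to 236) in young sham, 211 CPM (206 to 216) in young I/R, 224 CPM (219 to 229) in aged sham and 235 CPM (231 to 238) in aged I/R. The spread from lowest to highest was 1.11-fold. Aged I/R and young sham were within counting error, as were young sham and aged sham.

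These orders are those of CPM, and some changed with gene-wise scaling, given here as log2 relative to young sham. Nkx2-5 was then at 0.0065 in aged I/R, 0.32 in aged sham and 0.66 in young I/R, so its pair of young I/R and aged sham came apart. Gata6 was at −0.15 in young I/R and −0.13 in aged I/R, with only aged sham far lower at −0.57. Tbx20 in young I/R was at −0.033, close to young sham. Gata4 was at −0.35 in young I/R and −0.39 in aged I/R, and Mef2d at −0.13 and −0.59. Tead1 was at 0.088 in aged I/R, 0.11 in aged sham and 0.39 in young I/R. The range over the libraries was 0.39 for Tead1 and Gata4, 0.40 for Tbx5 and Tbx20, 0.66 for Nkx2-5, 0.73 for Mef2a and 0.90 for Mef2c. Young sham stayed highest for Gata4, Gata6, Mef2a, Mef2c and Mef2d, aged sham for Tbx20, and aged I/R for Tbx5 and Hand2.

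In the young hearts, 9 of the 10 factors were lower in I/R by CPM and 6 with gene-wise scaling. Most genes were lower by CPM too, with 70.1% of all genes below the −0.12 of Tead1. By CPM the factors ranged from Mef2a and Mef2c far below sham to Nkx2-5 and Tead1 near it. The log2 ratio of young I/R to young sham was −1.41 (−1.47 to −1.35) for Mef2c and −1.24 (−1.29 to −1.19) for Mef2a. Mef2c was thus at 0.376 and Mef2a at 0.424 of the sham level. Next came Gata4 at −0.87 (−0.998 to −0.73), Gata6 at −0.66 (−0.74 to −0.58), Mef2d at −0.64 (−0.72 to −0.56), Tbx20 at −0.54 (−0.63 to −0.45) and Tbx5 at −0.42 (−0.59 to −0.24). Hand2 at −0.24 (−0.37 to −0.12) and Tead1 at −0.12 (−0.17 to −0.076) were closer to sham, and Nkx2-5 was slightly above it at 0.15 (0.046 to 0.26). Of the 10 factors, 5 were at least 1.5-fold lower, Gata4, Gata6, Mef2a, Mef2c and Mef2d, against 46.1% of all 15465 genes with at least 20 UMIs in the pair, and 0 were at least 1.5-fold higher, against 6.36% of all genes. The share of lower factors was near that of all genes, and the median ratio of the factors was −0.59 beside −0.51 for all genes. Relative to that median, Mef2c was lower by a log2 difference of −0.90, Mef2a by −0.73 and Gata4 by −0.35, whereas Nkx2-5 was higher by 0.66, Tead1 by 0.39 and Hand2 by 0.27. After gene-wise scaling, Mef2a and Mef2c remained at least 1.5-fold lower, Nkx2-5 at 0.66 was at least 1.5-fold higher, and Tbx5 (0.09), Hand2 (0.27) and Tead1 (0.39) changed to a ratio above sham. With that scaling 3136 genes were 1.5-fold higher and 3639 lower, in place of 984 and 7130.

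In the aged hearts the same contrast gave ratios of mixed sign. By CPM they were further from 0 than in the young hearts for Hand2, Tbx5 and Nkx2-5 and closer to 0 for the other 7. This depended on the scaling. With gene-wise scaling Nkx2-5 was closer to 0 in aged hearts (−0.31, against 0.66 in young). Gata6 (0.43 against −0.15), Tbx20 (−0.24 against −0.033) and Mef2d (−0.29 against −0.13) were then further from 0 in aged hearts. Hand2 had the highest log2 ratio of aged I/R to aged sham, 0.69 (0.60 to 0.78), followed by Gata6 at 0.52 (0.45 to 0.60), Tbx5 at 0.49 (0.36 to 0.62) and Mef2a at 0.27 (0.23 to 0.31). Tead1 was at 0.068 (0.031 to 0.11) and turned to −0.021 with gene-wise scaling. Lower levels in I/R were found for Nkx2-5 at −0.22 (−0.31 to −0.14), Mef2d at −0.20 (−0.27 to −0.14) and Tbx20 at −0.15 (−0.22 to −0.094). Gata4 at −0.067 (−0.17 to 0.037) and Mef2c at −0.035 (−0.080 to 0.0093) were within counting error of sham by CPM. With gene-wise scaling both were below sham, Gata4 at −0.16 (−0.26 to −0.053) and Mef2c at −0.13 (−0.17 to −0.080). Hand2 alone passed 1.5-fold higher, 1 of 10 against 16.7% of all 16761 genes, and 0 were 1.5-fold lower against 9.71%. The median of the factors was 0.016, near the 0.085 of all genes. Gene-wise scaling left the same Hand2 call, with 2252 genes higher and 2120 lower in place of 2795 and 1628.

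Between the sham hearts, aged was at or below young for most factors. Gata6 had the lowest log2 ratio of aged sham to young sham, −0.71 (−0.80 to −0.63), and was the 1 factor at least 1.5-fold lower, against 19.8% of all 15875 genes. The MEF2 genes were close to each other, with Mef2a at −0.49 (−0.53 to −0.44), Mef2c at −0.47 (−0.52 to −0.42) and Mef2d at −0.45 (−0.52 to −0.37). Gata4 was at −0.38 (−0.50 to −0.26), Tbx5 at −0.26 (−0.43 to −0.088) and Hand2 at −0.17 (−0.29 to −0.044). Tbx20 at 0.22 (0.14 to 0.30) and Nkx2-5 at 0.17 (0.066 to 0.28) were higher in aged sham, though 0 factors reached 1.5-fold higher, against 8.99% of all genes. Tead1 at −0.038 (−0.086 to 0.0088) was within counting error of 0 and turned to 0.11 with gene-wise scaling. The median of the factors was −0.32 and that of all genes −0.14. Under gene-wise scaling Gata6 was at −0.57, short of 1.5-fold, and 2097 genes were higher and 2140 lower in place of 1427 and 3137.

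Between the injured hearts 8 factors were higher in aged than in young by CPM and 6 with gene-wise scaling. Most genes were higher by CPM too, with only 21.4% of all genes below the −0.0083 of Mef2d. This comparison shares its libraries with those above, so it is no independent evidence. The log2 ratio of aged I/R to young I/R was 1.02 (0.97 to 1.06) for Mef2a, 0.91 (0.85 to 0.96) for Mef2c, 0.76 (0.67 to 0.86) for Hand2, 0.65 (0.51 to 0.79) for Tbx5 and 0.61 (0.54 to 0.68) for Tbx20. These 5 of 10 were at least 1.5-fold higher, against 42.7% of all 16491 genes, and 0 were 1.5-fold lower, against 4.38%. Gata6 followed at 0.47 (0.40 to 0.54), Gata4 at 0.42 (0.30 to 0.54) and Tead1 at 0.15 (0.12 to 0.19). Mef2d at −0.0083 (−0.076 to 0.060) did not differ beyond counting error by CPM, but was at −0.46 (−0.53 to −0.39) with gene-wise scaling. Nkx2-5 was lower in aged I/R by CPM, at −0.21 (−0.29 to −0.12). The median of the factors, 0.54, was near that of all genes, 0.47. Gene-wise scaling left 0 factors 1.5-fold higher and Nkx2-5 at −0.66 as 1 factor 1.5-fold lower, turned Gata4 to −0.033 and Tead1 to −0.30, and gave 3297 genes higher and 2562 lower in place of 7043 and 722.

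**Figure D2:**
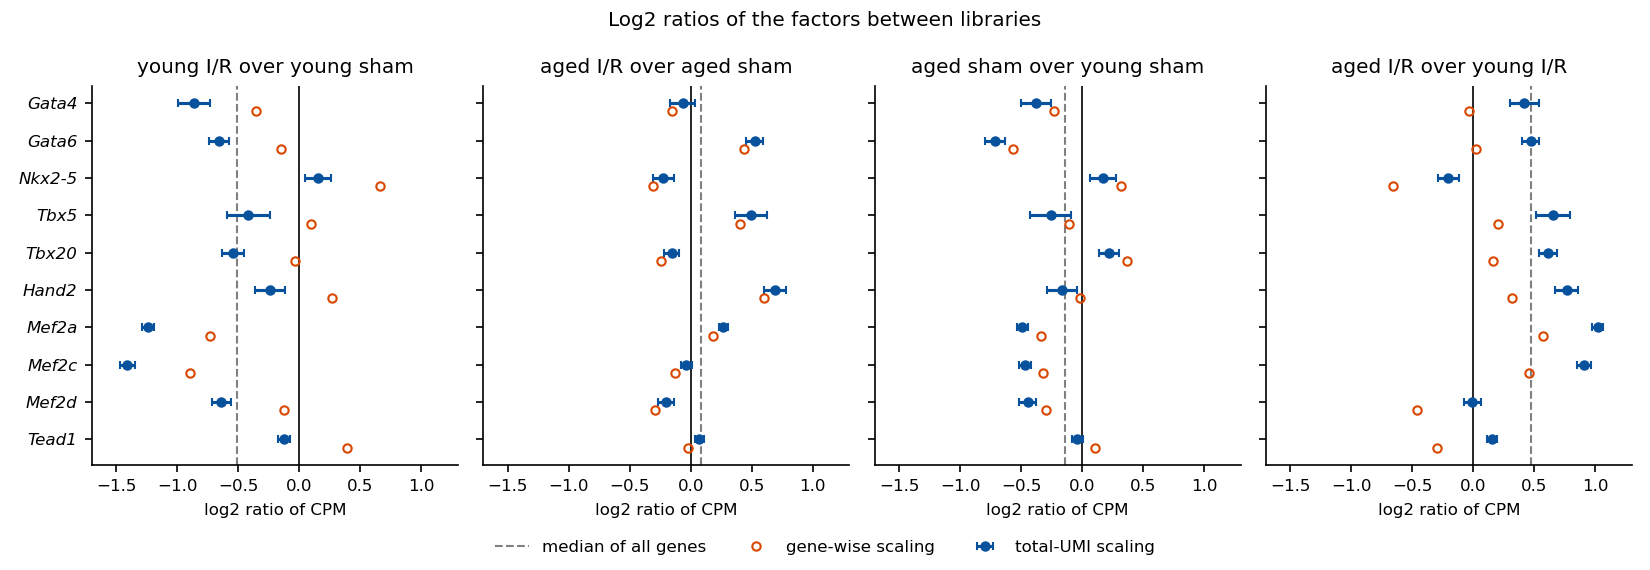
Log2 ratio of CPM for each factor in the 4 comparisons, with filled points for scaling by total UMIs (bars are exact 95% intervals for counting error), open points for gene-wise scaling and a dashed line at the median of all genes. Mef2a and Mef2c lie left of the dashed line in young I/R over young sham, and Nkx2-5 lies right of it there and left of it in aged I/R over young I/R.

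The I/R contrast can be set side by side for the ages, as the young log2 ratio minus the aged one. This difference was −1.51 (−1.57 to −1.44) for Mef2a, −1.37 (−1.45 to −1.30) for Mef2c and −1.18 (−1.29 to −1.07) for Gata6. Hand2 at −0.93, Tbx5 at −0.91 and Gata4 at −0.80 were in the middle of the factors, and Mef2d at −0.44, Tbx20 at −0.39 and Tead1 at −0.19 were closer to 0. Nkx2-5, at 0.38 (0.24 to 0.51), was the only factor with a positive difference under scaling by total UMIs. The median difference of all 15410 genes measured in both contrasts was −0.60 and that of the factors −0.85, with 6 of the 10 factors below the median of all genes. Relative to it, Mef2a was at −0.91, Mef2c at −0.78, Gata6 at −0.59 and Nkx2-5 at 0.98. Of all genes, 18.3% lay below Mef2a, 21.8% below Mef2c, 27.6% below Gata6 and 85.5% below Nkx2-5. Under gene-wise scaling the difference for Tbx20 (0.21), Mef2d (0.16) and Tead1 (0.41) changed sign, and the other 7 kept theirs.

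**Figure D3:**
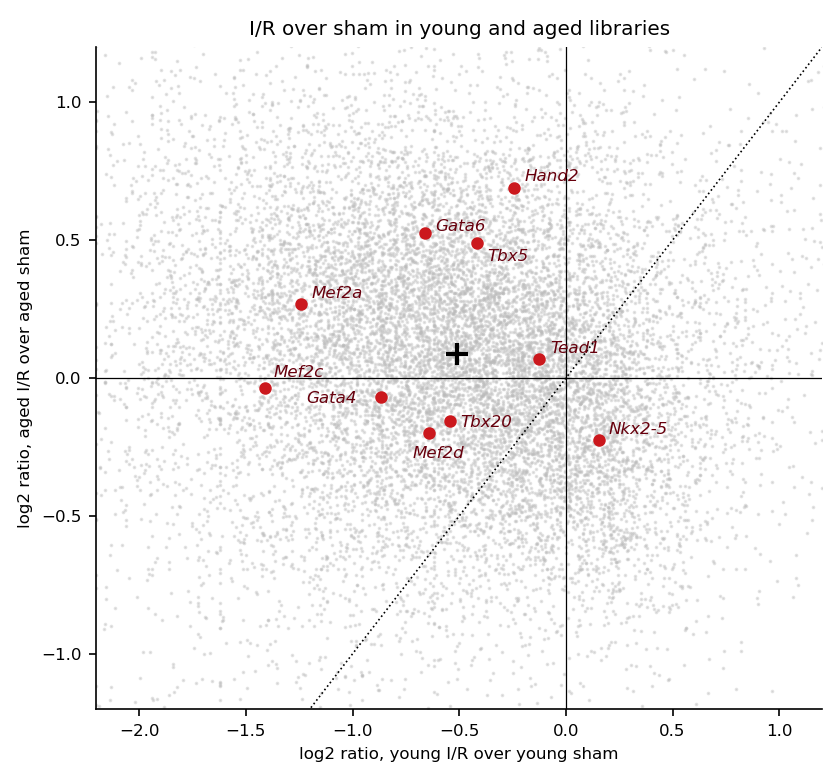
Log2 ratio of aged I/R over aged sham (vertical axis) against that of young I/R over young sham (horizontal axis), with each gene in grey, the 10 factors in red, the median gene as a cross and equal ratios on the dotted line. Genes outside the axes are not drawn. With scaling by total UMIs, as drawn, 9 factors lie left of the dotted line and Nkx2-5 to its right, and gene-wise scaling would move Tbx20, Mef2d and Tead1 across it. The cross of the median gene lies left of the line too.

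Gene length moved with these ratios. Whether intronic reads were counted is not given in the sources used here. The median log2 ratio of young I/R to young sham went from −0.37 for genes that span under 10 kb to −0.45 (10 to 50 kb), −0.61 (50 to 100 kb) and −0.75 (over 100 kb). In the aged contrast the medians went the other way, from −0.016 through 0.065 and 0.17 to 0.23. Mef2a spans 142 kb, Mef2c 163 kb and Tead1 227 kb, so all of them belong to the longest class. Against the −0.75 of that class in young I/R, Mef2c (−1.41) and Mef2a (−1.24) were lower and Tead1 (−0.12) was higher. Hand2 (3.65 kb) and Nkx2-5 (6.35 kb) are the shortest factors and belong to the class at −0.37. In the aged contrast Hand2 (0.69), Gata6 (0.52, 33.6 kb) and Tbx5 (0.49, 52.6 kb) stood above the medians of their classes. The part of gene length in the ratios was not tested beyond these medians.

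**Figure D4:**
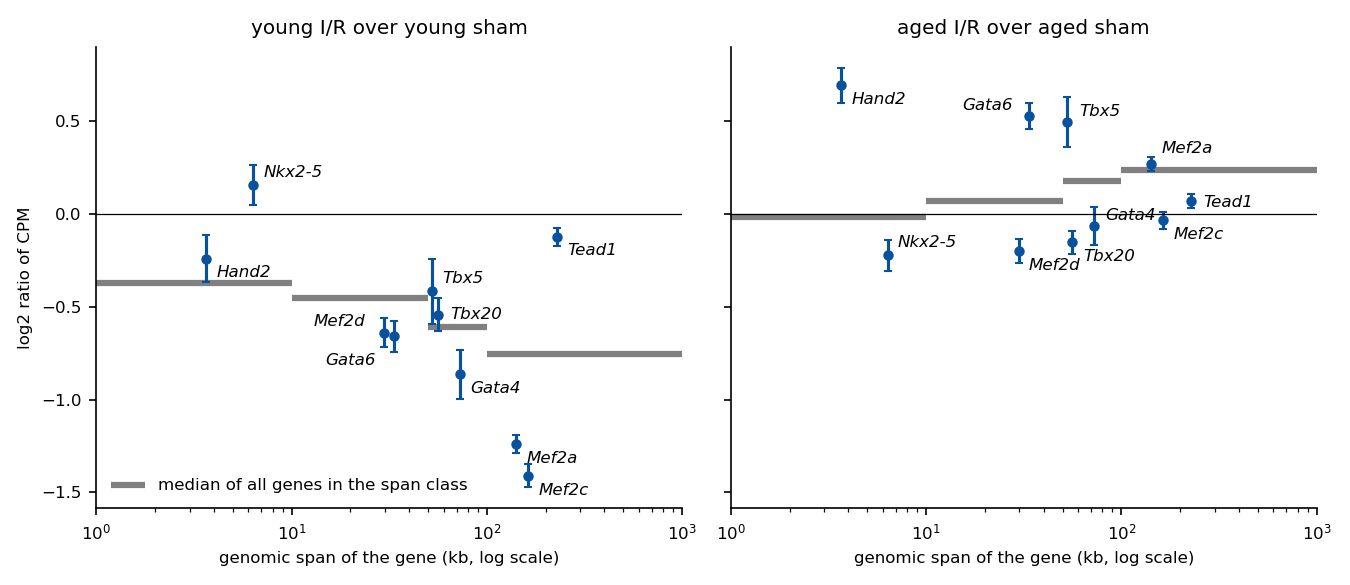
Log2 ratio of CPM of each factor against its genomic span in kb (log scale) for I/R over sham in the young (left) and aged (right) libraries, with exact 95% intervals for counting error. Grey lines are medians of all genes in 4 span classes, from −0.37 to −0.75 on the left and from −0.016 to 0.23 on the right.

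Some of the factors share their locus with a gene on the other strand, and since the sources used here do not say how the counting used strand, their counts are uncertain to that extent. Hand2 overlaps Hand2os1 (chromosome 8, 57281117 to 57324233, minus strand), a long non-coding RNA that regulates Hand2 in the embryo, over 3251 bases. Hand2os1 was at 202 CPM in young sham, 56.2 CPM in young I/R, 81.4 CPM in aged sham and 176 CPM in aged I/R. The log2 ratio of I/R to sham was −1.85 (−1.92 to −1.78) in young and 1.11 (1.06 to 1.17) in aged hearts. By CPM these had the same sign as for Hand2 and were further from 0. Gene-wise scaling adds 0.51 to every ratio of the young contrast. Hand2 was then above sham in young hearts, at 0.27 (0.14 to 0.39), while Hand2os1 stayed below it. Between the shams Hand2os1 was at −1.31 (−1.38 to −1.25) where Hand2 was at −0.17, so the pair did not keep a fixed ratio. The Gata6 antisense neighbour 1010001N08Rik overlaps it by 504 bases and had 119 to 452 UMIs per library, with log2 ratios of I/R to sham of −1.499 in young and 0.81 in aged hearts. Lysmd4 overlaps Mef2a over 76168 bases with 328 to 597 UMIs, against 5130 to 17495 UMIs of Mef2a. 2310014F06Rik at Tead1 had 48 to 145 UMIs and 1700113A16Rik at Mef2d 5 to 32.

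Markers of the cell types a ventricle holds also differed between the libraries. For young I/R over young sham, the summed log2 ratio was −0.19 for the 19 cardiomyocyte markers, −0.21 for 18 endothelial, −0.62 for 16 fibroblast, −0.54 for 19 macrophage and −0.44 for 11 mural markers, and 0.59 for 7 atrial markers. All 16 fibroblast and all 11 mural markers were lower there, while 4 atrial markers were higher and 3 lower. The median of all genes was −0.51 in this contrast, so most genes were lower too. Gene-wise scaling adds 0.51 to each of these ratios, more than the size of the cardiomyocyte, endothelial and mural sums. For aged I/R over aged sham, these sums were at 0.21, −0.060, −0.19, −0.11, −0.056 and −0.32 in the same order, and all 7 atrial markers were lower. A sum did not always follow most of its markers. In this contrast 8 cardiomyocyte markers were higher and 11 lower, 11 macrophage markers were higher and 8 lower, and 6 mural markers were higher and 5 lower. Between the shams the macrophage sum was higher in aged, at 0.49, and the cardiomyocyte sum was at −0.096, with 11 markers higher and 8 lower. Between the injured hearts the sums were at 0.30 for cardiomyocyte, 0.69 for fibroblast, 0.92 for macrophage and −1.06 for atrial markers. The median of all genes was 0.47 there. Gene-wise scaling adds −0.45 to each ratio, more in size than the cardiomyocyte sum. Here too 8 cardiomyocyte markers were higher and 11 lower, and 3 atrial markers were higher and 4 lower. The atrial list was led by Myl7, at 97.6 CPM in young I/R and 32.5 to 48.8 CPM elsewhere, and Bmp10 was at 0 in young I/R. No other listed marker was at 0 in any library. The part of these markers in the ratios of the factors was not tested.

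Genes that work with the factors were followed in lists of relatives (17), cofactors (26) and known targets (24). Of the 26 cofactors, 17 were at least 1.5-fold lower after I/R in the young hearts, against 46.1% of all genes, and 1 was higher, against 6.36%. With gene-wise scaling 7 were lower, against 23.5% of all genes, and 3 higher, against 20.3%, and the median log2 ratio went from −0.71 to −0.20. The lowest ratios of the lists were those of Nfatc2, a calcineurin-regulated factor, at 6.35 CPM against 25.1 CPM in young sham (−1.98, −2.199 to −1.77), Hdac9, a histone deacetylase that binds and represses MEF2, at 8.44 against 26.4 CPM (−1.64, −1.84 to −1.45), and Irx4, a homeobox relative of the ventricle, at 9.18 against 28.2 CPM (−1.62, −1.81 to −1.44). The highest ratios were those of 2 targets and 1 cofactor. Nppb, the gene of B-type natriuretic peptide, was at 205 CPM in young I/R and 49.3 CPM in young sham (2.05, 1.97 to 2.14), Nppa, that of the atrial peptide, at 1055 and 335 CPM (1.66, 1.62 to 1.69), and Ankrd1, a stretch-responsive cofactor, at 3042 and 1059 CPM (1.52, 1.503 to 1.54). Of the 24 targets, 5 were higher and 5 lower, with a median of 0.13, and of 12 measured relatives 0 were higher and 4 lower. With gene-wise scaling 14 targets were higher and 2 lower, with a median of 0.64, and 1 relative was higher and 3 lower, against the same 20.3% and 23.5% of all genes.

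In aged I/R over aged sham, 4 of 26 cofactors were 1.5-fold higher and 2 lower, 5 and 3 of 24 targets, and 1 and 2 of 14 relatives, against 16.7% of all genes higher and 9.71% lower. Xirp1, which encodes an intercalated disc protein, was at 157 CPM in aged I/R and 67.9 CPM in aged sham (1.21, 1.15 to 1.27), Ryr2, the calcium release channel, at 2688 and 1180.4 CPM (1.19, 1.17 to 1.202), and Tead4 at 3.13 and 1.499 CPM (1.06, 0.65 to 1.495). Nppa was lower in aged I/R, at 379 against 821 CPM (−1.12, −1.14 to −1.09), as were the TEAD cofactor genes Vgll2, at 1.96 against 4.28 CPM (−1.13, −1.46 to −0.79), and Vgll3, at 4.82 against 9.79 CPM (−1.02, −1.24 to −0.81). Nppa therefore had opposite signs in young and aged hearts, a difference that was not tested.

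With age alone, Myh7 led the lists. This slow myosin heavy chain gene, a marker of fetal gene expression, was at 1174 CPM in aged sham and 72.3 CPM in young sham (4.02, 3.95 to 4.09), and at 594 CPM in aged I/R and 93.9 CPM in young I/R (2.66, 2.61 to 2.71). Vgll2 was at 4.28 and 0.310 CPM in the shams (3.79, 2.78 to 5.02) and at 1.96 and 0.378 CPM in the injured hearts (2.38, 1.60 to 3.25), with only 8 and 15 UMIs in the young libraries. Nppb was higher in aged sham (1.33, 1.24 to 1.42) and lower in aged I/R than in young I/R (−0.64, −0.68 to −0.59). Ryr2 (−1.12, −1.14 to −1.10), Vgll4 (−0.83, −0.97 to −0.69) and Ttn (−0.82, −0.82 to −0.81) were lower in aged sham. In the injured hearts Gata3, with 10 UMIs in young I/R, had a ratio of 3.03 (2.10 to 4.12), and Xirp1 (−0.60, −0.64 to −0.56) and Nppa (−1.48, −1.501 to −1.46) were lower in aged. Between the shams, 3 of 13 relatives, 2 of 26 cofactors and 3 of 24 targets were 1.5-fold higher and 0, 6 and 2 lower, against 8.99% of all genes higher and 19.8% lower. Between the injured hearts these counts were 6, 13 and 7 higher and 0, 0 and 4 lower, against 42.7% of all genes higher and 4.38% lower. After gene-wise scaling they were 2, 6 and 1 higher and 0, 2 and 11 lower, against 19.99% and 15.5% of all genes.

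Some of the factors had like patterns over the libraries. As a measure of likeness, the log2 CPM of a gene was centred over the 4 libraries and the root mean square difference of 2 genes was taken. The closest factors were Tbx5 and Hand2 (0.107), then Mef2a and Mef2c (0.125), Nkx2-5 and Tead1 (0.147) and Gata4 and Mef2d (0.154). Among 9909 genes with at least 1000 UMIs, those most like each factor were Zfp521 and Ss18 for Gata4, Zbtb11 and Zfp637 for Gata6, Gm16286 and Trappc5 for Nkx2-5, Khsrp and Ddx42 for Tbx5, Man1c1 and Zc2hc1a for Tbx20, and Usp1 and Rassf8 for Hand2. For the MEF2 genes they were Ddhd2 and Senp7 (Mef2a), Invs and Ksr1 (Mef2c) and Slc1a5 and Dmac2l (Mef2d), and for Tead1 Fkbp3 and Lnpep. The differences ran from 0.0063 (Zfp521) to 0.033 (Zc2hc1a). Each pattern rests on 4 values.

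To see which barcodes carry the factors, the 5% of barcodes richest in the markers of a cell type were taken in each library, among barcodes with at least 200 detected genes, and the CPM of a factor in them was set over its CPM in all ranked barcodes. For 0 of the 10 factors was this at least 1.5-fold higher in all 4 libraries, for any of the 6 cell types. The cardiomyocyte markers themselves were only at 1.29- to 1.45-fold in the barcodes picked by them. A factor that followed these markers would not reach 1.5-fold, so the 0 cannot speak to cardiomyocytes. A check of the ranking showed how little cell type it resolved. Ranked on alternate markers of a list, barcodes held the remaining markers at 0.931 to 1.07 times the average for cardiomyocyte markers, and at up to 1.38-fold for endothelial, 1.705-fold for fibroblast, 1.87-fold for mural and 2.04-fold for macrophage markers, each of these highest in young sham. Atrial markers separated best, at 1.40- to 7.87-fold. In the atrial-rich barcodes Tbx5 was at 1.14- to 1.57-fold and Nkx2-5 at 1.06- to 1.44-fold, above 1 in all 4 libraries. Only the Tbx5 value in aged sham, 38 UMIs and a log2 ratio of 0.65 (0.16 to 1.08), had an interval that left out 0 among these 8 values. The other factors were on both sides of 1 across the libraries or below it. Of their intervals, Mef2a in young I/R lay above 0 (0.017 to 0.43) and Mef2c in young sham below it (−0.56 to −0.0064). In other sets, Mef2c (cardiomyocyte-rich, 1.004- to 1.08-fold), Gata6 (fibroblast-rich, 1.03- to 1.13-fold) and Mef2a (macrophage-rich, 1.001- to 1.18-fold) were also above 1 in all 4 libraries. Nkx2-5 was below 1 in the cardiomyocyte-rich barcodes of all 4 libraries (0.688- to 0.909-fold). Of its intervals there, only that of young I/R (−0.97 to −0.14) left out 0. Also below 1 in all 4 libraries were Mef2a, Mef2d and Tead1 (endothelial-rich) and Tbx5 and Mef2d (fibroblast-rich). The same held for Gata6 (macrophage-rich and mural-rich) and Mef2d (atrial-rich). An atrial-rich barcode held a median of 1 marker UMI, so the sets rest on thin counts, and with this ranking the cell types that carry the factors could not be resolved.

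**Figure D5:**
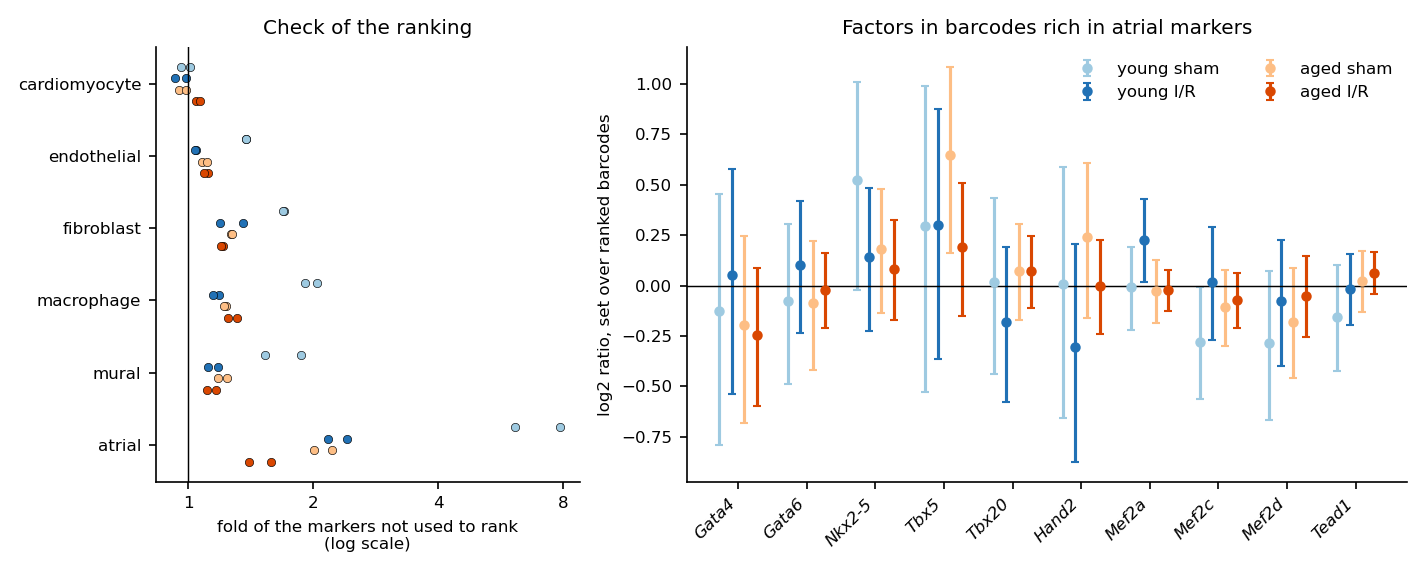
Left, the fold of the markers not used for ranking in the 5% of barcodes richest in the other markers of their list, for 6 cell types, with 2 points per library (1 for each set of alternate markers, log scale). Right, log2 ratio of each factor in atrial-rich barcodes over all ranked barcodes, per library, with exact 95% intervals for counting error. The cardiomyocyte points sit at 0.931 to 1.07, and Tbx5 and Nkx2-5 are above 0 in all 4 libraries with intervals that mostly include it.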

How the data were processed

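Left ventricle libraries of 4 groups, 1 per group, were analysed from the deposited matrices. The authors made the UMI counts, a whole-number count of molecules per gene and barcode, with Cell Ranger 6.0.2 on mm10 (submitters' processing notes), and these were deposited without normalization. Gene positions are from GENCODE M21, which is of the same build (GRCm38). Here the counts of a gene were summed over all barcodes with no filter on cells and no removal of doublets, and divided by the library total of 25836175 to 66767829 UMIs, giving CPM. Poisson intervals (levels) and conditional binomial intervals (ratios), both exact at 95%, were computed with scipy 1.17.1 and numpy 2.4.6 under Python 3.11.15 and cover counting error only. Genes with fewer than 20 UMIs in a pair of libraries stayed out of its comparison, and the calls used 1.5-fold. The ratio and its interval were tested on simulated data. No test between groups was made.

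All 10 factors were named, and of the related lists the 3 genes with the highest and the 3 with the lowest ratio per comparison (100 UMIs or more over both libraries), with the 2 genes most like each factor. The factors and the lists were chosen with earlier results of these data known. Gene spans came from the annotation and matched 99.97% of the counted genes. The alternatives were gene-wise scaling, totals without Gm42418, Malat1 and the 13 mitochondrial genes, only barcodes with at least 200 detected genes, no shared barcodes, a 2-fold threshold, and other marker-rich sets (2% or 10% of barcodes, all barcodes ranked). Leaving the ranking list out of the totals and the check on alternate markers were added after seeing the data. Matches to short motifs were searched on both strands in the promoter sequences.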

Additional observations from a re-analysis of the deposited data

Results flagged for a closer look

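For 6 factors the log2 ratio of I/R to sham had opposite signs in young and aged hearts, and in each case the single young and the single aged library pair moved apart. By CPM the medians of all genes also had opposite signs, at −0.51 in young and 0.085 in aged hearts. The share of all genes with opposite signs was not counted. The difference, young minus aged, was −1.51 for Mef2a, −1.18 for Gata6, −0.93 for Hand2, −0.91 for Tbx5, −0.19 for Tead1 and 0.38 for Nkx2-5. With 1 library per group the difference was not tested. With gene-wise scaling, Gata6, Nkx2-5 and Mef2a kept their opposite signs. Tead1 turned in both, to 0.39 in young and −0.021 (−0.059 to 0.016) in aged hearts, and its difference to 0.41, whereas Tbx5 (0.09 in young, 0.40 in aged) and Hand2 (0.27 and 0.60) were above sham at both ages.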

How the results depend on the processing

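Each group has 1 library, so neither a replicate could be left out nor the spread between mice be measured. No paired analysis was possible because each group has 1 library and no test was made. With gene-wise scaling the number of factors at least 1.5-fold higher in young I/R over young sham went from 0 to 1 and the number lower from 5 to 2. In aged over young I/R the number higher went from 5 to 0 and the number lower from 0 to 1, and in aged over young sham the number lower went from 1 to 0. The medians of the factors became −0.081 (young I/R over sham), −0.073 (aged I/R over sham, a change of sign), 0.089 (aged over young I/R) and −0.17 (aged over young sham). With totals that left out Gm42418, Malat1 and the mitochondrial genes, 3 factors were lower in young I/R over sham, beside 6025 of all 15465 genes. In aged over young I/R 3 were higher, beside 5488 of all 16491 genes. The medians of the factors were −0.45 and 0.38, beside −0.37 and 0.31 for all genes, and the median of the factors for aged I/R over sham was −0.074. In barcodes with at least 200 detected genes, 3 factors were lower in aged over young sham, beside 3750 of all 15121 genes. The median of the factors there was −0.50, beside −0.15 for all genes, and the median of the factors for aged I/R over sham was −0.0062. At 2-fold, 2 factors passed in young I/R over sham, 0 in aged I/R over sham, 1 in aged over young I/R and 0 in aged over young sham. The share of all genes at 2-fold was not taken, so these counts have no background.

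Single ratios changed sign under gene-wise scaling for Tbx5 (0.092), Hand2 (0.27) and Tead1 (0.39) in young I/R over sham, Tead1 (−0.021) in aged I/R over sham and (0.11) in aged over young sham, and Gata4 (−0.033) and Tead1 (−0.30) in aged over young I/R. Without the abundant RNAs, Tead1 changed sign in all 4 comparisons, to 0.022, −0.022, 0.037 and −0.0074 in the same order, and without shared barcodes Mef2d in aged over young I/R went from −0.0083 to 0.0043. The difference between ages changed sign under gene-wise scaling for Tbx20 (0.21), Mef2d (0.16) and Tead1 (0.41), and without the abundant RNAs for Tead1 (0.044). Of 40 ratios, 7 and 4 changed sign under these scalings, 0 with the 200-gene barcodes and 1 without shared barcodes. The cause of these changes was not tested, but a new scaling shifts every gene of a comparison by 1 constant. The count of factors enriched in all 4 libraries stayed at 0 in each marker-rich alternative. Because the ranking resolved so little cell type, this says little about which cells carry the factors.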
